A study of Homo sapiens with 5 samples.

Results

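TGF-beta signalling in RPE-1 cells was described through 9 genes, chosen by symbol as the ligands TGFB1 and TGFB2, the receptors TGFBR1 and TGFBR2, the signal transducers SMAD2, SMAD3 and SMAD4, and the inhibitors SMAD7 and SKIL. Each of the 9 had 1 row among the 64252 gene identifiers of the table, and all passed the filter on low counts, as did 15341 genes in all. RPE-1 is an immortalized human retinal pigment epithelial line. RNA was collected 48 hr after transfection with a non-targeting control siRNA (siCtrl, 3 libraries) or with pooled siRNAs that target FAM53C (siFAM53C, 2 libraries), each at 5 µM by the labels. All 5 libraries came from the same wild-type cells and received the same transfection reagent. The comparison asked which transcripts change when FAM53C, a protein linked to DYRK1A and to progress through G1, is depleted. As a model, siFAM53C is a partial loss by a pool of siRNAs in 1 cell line, compared with a single control siRNA. Nothing in the labels says that the libraries of a group came from separate cultures, so the p-values measure only the spread between these libraries, which may be technical.

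TGF-beta ligands are secreted in a latent form and, once released, bind the type II receptor TGFBR2, which then recruits and phosphorylates the type I receptor TGFBR1. The active receptor phosphorylates SMAD2 and SMAD3, which join SMAD4 and enter the nucleus to switch genes on or off. SMAD7 blocks the receptor and SKIL (SnoN) represses SMAD complexes, and both are themselves switched on by the signal, which closes a negative loop. In epithelial cells the pathway is best known for restraining proliferation in G1, for matrix production and for the shift towards a mesenchymal state.

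Scaled to library size, the ligand TGFB2 and both receptors were lower in both siFAM53C libraries than in any control, whereas SMAD3 and SMAD4 were above, and only TGFBR2 passed the test with the main settings. TGFBR2 fell by 0.82 on the log2 scale (SE 0.12), to 0.567 of its siCtrl level. TGFB1, SMAD2, SMAD7 and SKIL overlapped between the groups. Of the 9 genes, 1 was called lower, where 3.47% of all genes tested were, and 0 were called higher, where 0.489% were (3.96% in either direction) (edgeR, quasi-likelihood test; Benjamini-Hochberg adjusted over all genes, threshold 0.05). At an unadjusted p under 0.05, 2 were lower (TGFBR1 and TGFBR2, 10.5% of all genes) and 0 higher (6.61%). DESeq2 called 1 lower (6.98% of the 12749 genes with an adjusted p) and 0 higher (2.02%). The groups did not overlap in 5 of the 9 genes (35.5% of all genes), with siFAM53C below siCtrl in 3 (18.8%) and above in 2 (16.7%). The median log2 fold change of the 9 was -0.15, beside 0.016 over all genes tested.

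**Figure D1:**
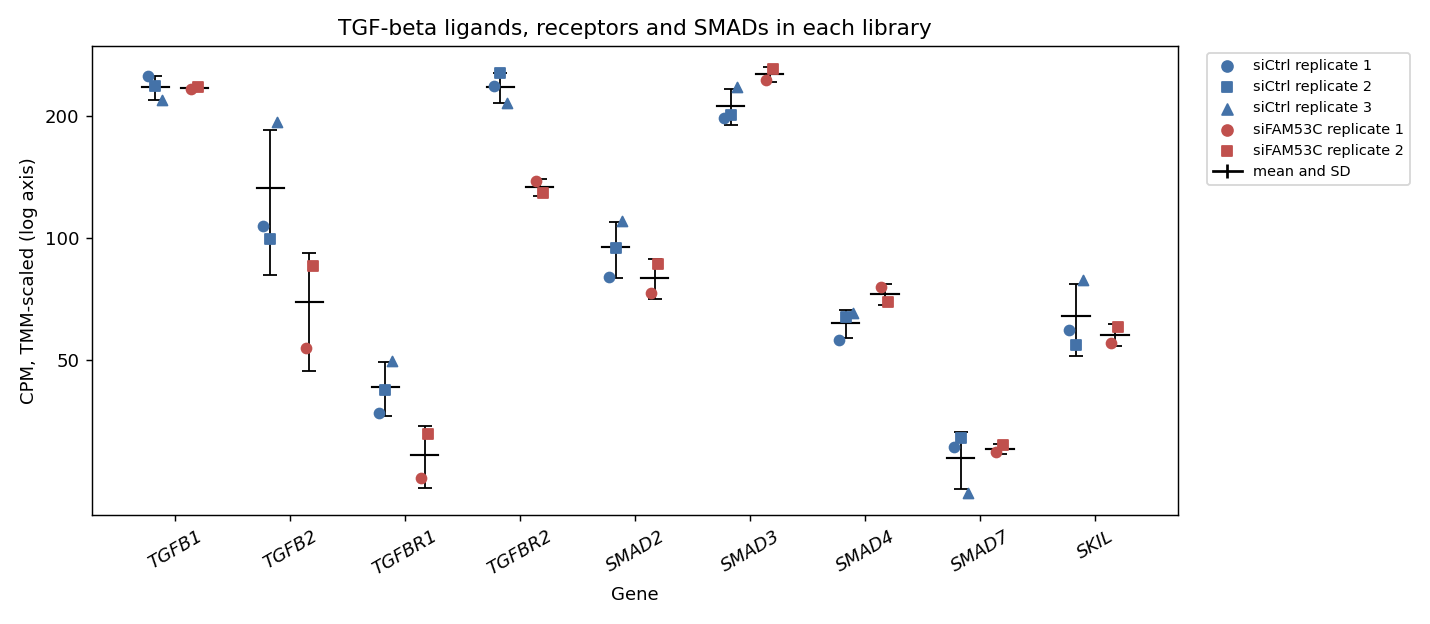
CPM (counts scaled to library size with TMM factors; log axis) of the 9 genes in each library, with blue points for siCtrl and red for siFAM53C, a bar for the mean and whiskers for the SD. TGFBR2 lies between 215 and 255 in siCtrl and at 129 and 138 in siFAM53C, and the siCtrl replicate 3 value of TGFB2 (193) stands apart from the other controls.

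The targeted gene and the libraries were checked first. FAM53C had from 57.6 to 60.9 CPM in siCtrl and 14.2 and 22.3 in siFAM53C (log2 fold change -1.71, SE 0.19). Library totals ranged from 19260124 to 25615415 counts. The first principal component, with 39.8% of the variance, set siCtrl replicates 1 and 2 apart from a pair made of the third control and siFAM53C replicate 2, with siFAM53C replicate 1 between. This split crosses the siRNA groups, and the column names of the pair end in the same number. Results were therefore also computed without each library, with a term for the split and with a block by column name numbers. The split term and that block set the same pair apart, so their results are not separate evidence. The split was read from these same libraries, so p-values from a fit with its term can be too small. That fit placed siFAM53C replicate 1 with siCtrl replicates 1 and 2, though it lay between (0.264 on the component). The epithelial keratins KRT8 and KRT18 and the pigment epithelium factors MITF and OTX2 were detected, but RPE65 and TTR had no counts in any library and EPCAM and CDH1 were near 0. Fibroblast markers summed to between 293 and 336 CPM in siCtrl and 306 and 320 in siFAM53C. Of these 6 markers 4 were tested, and PDGFRB and COL1A1 were called higher (0.489% of all genes tested were). THY1 (log2 fold change -0.22) and PDGFRA (-0.55, at most 2.36 CPM) were below every control in both siFAM53C libraries without passing the test, DCN was near 0 and LUM had no counts. Pigment epithelium markers summed to between 54 and 69.2 CPM in siCtrl and 52.3 and 63 in siFAM53C, epithelial markers to between 384 and 467 against 500 and 502, with KRT8 above every control, and neuronal markers to at most 10.4. Blood and endothelial markers summed to at most 1.05 and 1.23 CPM in any library.

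Among the ligands, TGFB2 (ENSG00000092969; chromosome 1, 218345336 to 218444619, plus strand, GRCh38) had 107, 99.3 and 193 CPM in siCtrl and 53.5 and 85.4 in siFAM53C. Each siFAM53C value was below all 3 controls, but the controls were widely spread, with siCtrl replicate 3 above the others. TGFB2 differed by -0.94 on the log2 scale (SE 0.37, edgeR adjusted p = 0.298), so the difference did not pass the test with the main settings. Within the sides of the library split, TGFB2 differed by -0.94 (siFAM53C replicate 1 against siCtrl replicates 1 and 2) and by -1.17 (siFAM53C replicate 2 against siCtrl replicate 3). With a term for the split, TGFB2 was called lower (-1.04, adjusted p = 5.961e-07 from the same edgeR test). The split was read from these same libraries, so this value can be too small. Over 13 alternative fits the adjusted p of TGFB2 ranged from that value to 0.672. Left without siCtrl replicate 3, TGFB2 was -0.56, a move of more than 1.5 times. Opposite-strand genes overlap 701 of its exon bases, and there reads cannot be told apart if strand was ignored in counting.

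TGFB1 (ENSG00000105329; chromosome 19, 41301587 to 41353922, minus strand) encodes the most widely expressed form of the ligand. It had 251, 237 and 219 CPM in siCtrl and 233 and 236 in siFAM53C, so that both siFAM53C values fell inside the range of the controls. Its log2 fold change was -0.010 (SE 0.11). The level of TGFB2 relative to TGFB1, per length, was 0.229, 0.226 and 0.475 in siCtrl and 0.124 and 0.195 in siFAM53C. The siFAM53C ratios were the lowest, with an exact two-sided permutation p of 0.2. This is the smallest value that the form used, which doubles the smaller tail, can give with 3 against 2 libraries. With the median length of protein-coding transcripts in place of merged exons, the mean ratio was 0.132 in siCtrl and 0.0677 in siFAM53C.

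TGFBR2 (ENSG00000163513; chromosome 3, 30606601 to 30694142, plus strand), the receptor that binds the ligand, had 5585, 4866 and 4101 counts in siCtrl and 3647 and 3044 in siFAM53C. In CPM this is 237, 255 and 215 against 138 and 129, or 236 ± 19.9 (SD, n = 3) against 134 ± 6.12 (SD, n = 2). The groups were far apart, and the spread within each was small. The adjusted p was 0.009589 in edgeR. TGFBR2 differed by -0.83 and -0.73 within the sides of the split, and its value stayed between -0.88 and -0.75 over the 13 alternatives. The call held in 9 of these, and was lost without siCtrl replicate 1 or 2 or without either siFAM53C library, where the adjusted p (edgeR) was 0.05983, 0.06512, 0.08508 and 0.1075; over all alternatives it ranged from 2.171e-07 to 0.1075. No exon base of TGFBR2 is shared with a gene on the opposite strand.

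Its partner TGFBR1 (ENSG00000106799; chromosome 9, 99104038 to 99154192, plus strand) is the kinase that phosphorylates SMAD2 and SMAD3. It had 36.9, 42.1 and 49.8 CPM in siCtrl and 25.6 and 32.8 in siFAM53C. The siFAM53C values were the lowest, without overlap, but close to the lowest control. The log2 fold change of -0.56 (SE 0.17) did not pass the test (adjusted p = 0.1487 in edgeR). It was called with no filter on low counts (-0.56), with the replicate numbers of the column names as a block (-0.57) and with a term for the split (-0.61), and not in the other 10 alternatives, over which and these its adjusted p ranged from 0.00103 to 0.5606. Per length, the ratio of TGFBR1 to TGFBR2 was 0.158 ± 0.0356 in the 3 siCtrl libraries and 0.188 ± 0.041 in the 2 of siFAM53C (mean ± SD), a difference within the spread (exact permutation p = 0.4, two-sided).

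The receptor-activated SMADs lay on either side of 0. SMAD3 (ENSG00000166949; chromosome 15, 67063763 to 67195173, plus strand) had 198, 201 and 236 CPM in siCtrl and 246 and 261 in siFAM53C. SMAD2 (ENSG00000175387; chromosome 18, 47808957 to 47931146, minus strand) had 79.9, 94.4 and 110 CPM in siCtrl and 73.2 and 86.1 in siFAM53C. The SMAD3 groups did not overlap, though siCtrl replicate 3 was near the siFAM53C values, and the SMAD2 groups did. Log2 fold changes were 0.26 (SE 0.12) for SMAD3 and -0.25 (SE 0.155) for SMAD2, with adjusted p of 0.3164 and 0.4754 in edgeR. With a term for the split SMAD3 was called higher (0.24) and SMAD2 lower (-0.30), each with an edgeR adjusted p just under the threshold (0.04812 and 0.03736; over all alternatives up to 0.7558 and 0.8411). The ratio of SMAD3 to SMAD2 per length was 9.03, 7.73 and 7.77 in siCtrl and 12.2 and 11 in siFAM53C. The siFAM53C ratios were the highest, by more than either SD (0.739 and 0.869), with the smallest p this form of the test allows (exact permutation p = 0.2, two-sided). The size of this ratio rests on the merged length of SMAD2. With the median length of protein-coding transcripts it was 1.59 ± 0.139 in siCtrl and 2.26 ± 0.165 in siFAM53C (mean ± SD).

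SMAD4 (ENSG00000141646; chromosome 18, 51028528 to 51085045, plus strand), the partner shared with the BMP branch, had 55.9, 63.7 and 65.2 CPM in siCtrl and 75.6 and 69.5 in siFAM53C. The siFAM53C values were above all controls by a small margin. Its log2 fold change was 0.24 (SE 0.11, adjusted p = 0.3511 in edgeR), and it was called in 0 of the 13 alternatives, DESeq2 among them.

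Neither inhibitor of the negative loop differed beyond its spread. SMAD7 (ENSG00000101665; chromosome 18, 48919853 to 48950965, minus strand) had 30.4, 32.1 and 23.4 CPM in siCtrl and 29.6 and 30.8 in siFAM53C. SKIL (ENSG00000136603; chromosome 3, 170357342 to 170396835, plus strand) had 59.3, 54.3 and 78.8 CPM in siCtrl and 55.1 and 60.3 in siFAM53C. In each gene siCtrl replicate 3 was the most distant control, low for SMAD7 and high for SKIL, and the siFAM53C values lay within the control range. Log2 fold changes were 0.077 (SE 0.16) and -0.15 (SE 0.17), and without siCtrl replicate 3 they changed sign, to -0.041 and 0.030. Within the sides of the split they also differed in sign or size, -0.076 and 0.39 for SMAD7 and -0.042 and -0.39 for SKIL.

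**Figure D2:**
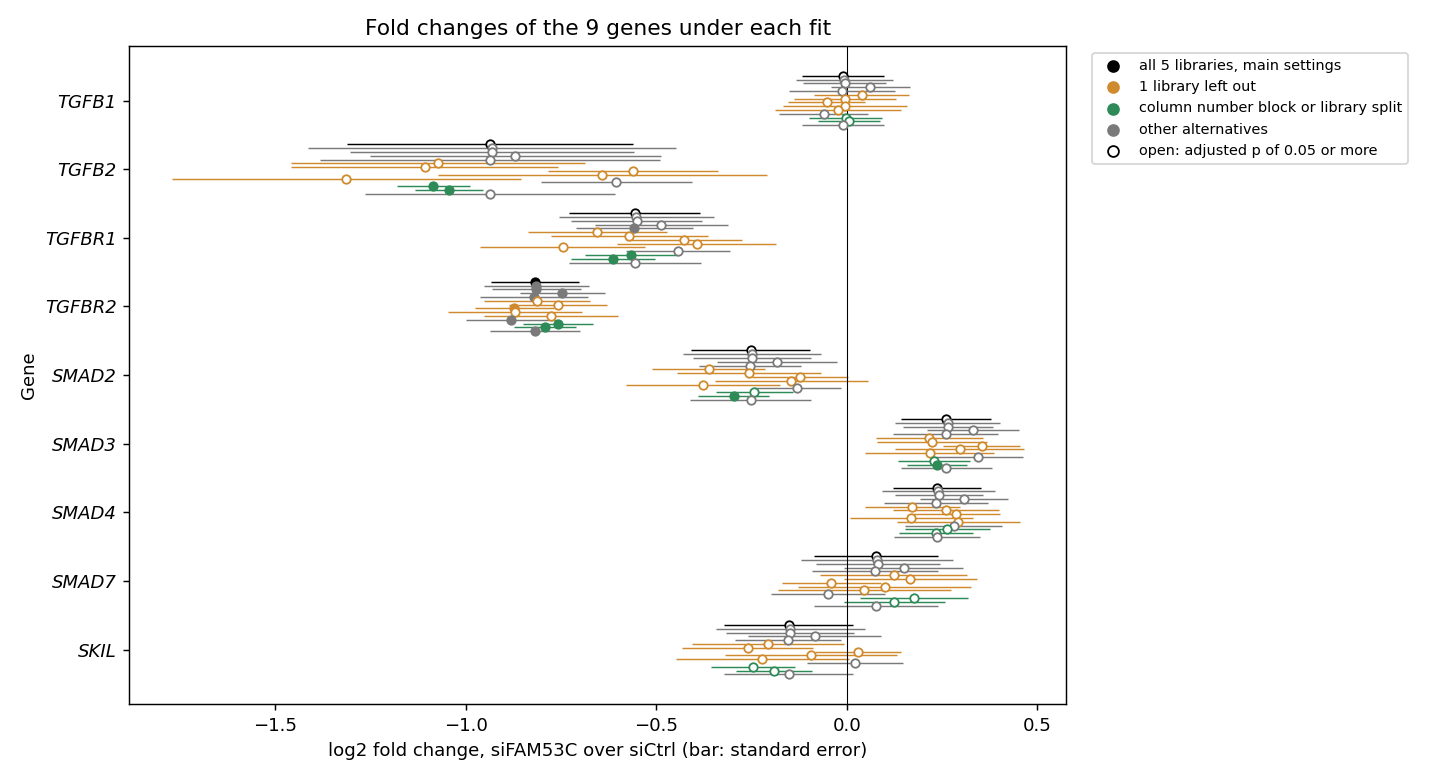
Log2 fold change of each of the 9 genes, siFAM53C over siCtrl, with its standard error as a bar, under the main settings (black) and 13 alternatives; filled points have an adjusted p under 0.05. TGFBR2 stays between -0.88 and -0.75, and the block by column names and the library split (green) give TGFB2 and TGFBR1 filled points, whereas TGFB1, SMAD7 and SKIL lie around 0.

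Levels between genes were compared per length, as TPM over the merged exons of each gene. In siCtrl the order was TGFB1 (284 ± 15.5), TGFBR2 (135 ± 8.2), TGFB2 (87 ± 36.3), SMAD3 (83.3 ± 10.4), SKIL (31.2 ± 7.14), SMAD7 (28.5 ± 3.95), TGFBR1 (21.2 ± 3.67), SMAD4 (12.4 ± 1.15) and SMAD2 (10.3 ± 1.86; mean TPM ± SD, n = 3). TGFB2 and SMAD3, and SKIL and SMAD7, did not differ beyond their SDs. In siFAM53C SMAD3 (104 ± 1.58) stood above TGFBR2 (79.8 ± 5.62) and TGFB2 (46.8 ± 14.1; mean TPM ± SD, n = 2), and SMAD4 (15.1 ± 1.26) and TGFBR1 (14.9 ± 2.22) did not differ beyond their SDs. TGFBR1 was thus far less abundant than TGFBR2 in each group. Places in this order depended on length, most of all that of SMAD2. Its merged exons span 36426 bases, and with the median length of its protein-coding transcripts (1378 bases) in place of these it ranked 3 of the 9 genes in each group, and SMAD3 ranked 2. By median length SMAD3 was above TGFBR2 in siCtrl (109 against 51.6 CPM per kilobase) as well as in siFAM53C (130 against 29.2). TGFBR2 then ranked 4 in each group. The change of order between SMAD3 and TGFBR2 thus rests on the merged lengths.

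The 2 genes with the lowest fold changes among the 9, TGFB2 and TGFBR2, were also the 2 whose longest annotated 3' UTR (the untranslated part after the stop codon) held the heptamer GACAAGA. This heptamer was picked in an earlier analysis for its link to lower expression in these same libraries, so the match is a description and no independent evidence, and its part in the values was not tested. Of 12075 tested genes with a 3' UTR, 1400 (11.6%) hold it, of which 15.1% were called lower, against 2.92% of the others. The sites are shown 5' to 3' on the sense strand of GRCh38, with the heptamer in capitals, beside that of FAM53C itself and those of the receptor gene ACVR2B and the activator gene ITGB8, which were called lower. They lie at chr1:218441601-218441623 (TGFB2), chr3:30693336-30693358 (TGFBR2), chr5:138347130-138347152 (FAM53C), chr3:38484506-38484528 (ACVR2B), and chr7:20410465-20410487 and chr7:20413395-20413417 (ITGB8).
TGFB2: gtgagagaGACAAGAagcaaatt
TGFBR2: tccacaagGACAAGAacaaagta
FAM53C: ctggccggGACAAGAtaaacgga
ACVR2B: ggctcgtgGACAAGActttctcc
ITGB8, site 1: gttgaataGACAAGAacagctag
ITGB8, site 2: ttatgcaaGACAAGAgtcagcca
TGFBR1 and the 6 other genes of the set hold no such heptamer in that region. Other pathway genes hold the heptamer and were not called with the main settings: GDF11 (log2 fold change -0.0077), ACVR1B (-0.032), GREM1 (0.016), SMURF2 (-0.15), USP15 (-0.21) and SKI (-0.42) have 1 site each.

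In the promoters, the SMAD-binding element CAGAC (searched on both strands, reverse complement GTCTG) was present in 5 of the 9 genes between 250 bases before and 50 after the RefSeq start (GRCh38.p14), where 45.0% of 27305 promoters hold it. The palindrome GTCTAGAC was in 0 of the 9 windows and in 0.201% of all. The sites of the inducible inhibitors SMAD7 (2 sites) and SKIL, at chr18:48951167-48951193, chr18:48951078-48951104 and chr3:170357597-170357623, are given 5' to 3' on the gene's strand, with the element in capitals.
SMAD7, site 1: ccggacgccccCAGACctctgaggttc
SMAD7, site 2: tcttattttgcCAGACgtctcatgcgg
SKIL: acggcggcggcGTCTGcgggaagctgt
A match says only that the letters are there; SMAD binding was not measured.

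Around the 9 genes, 53 other genes of the TGF-beta and BMP pathways were examined, of which 47 were tested. Of these, 6 were called lower (3.47% of all genes were) and 0 higher (0.489%) in edgeR. Unadjusted p under 0.05 gave 10 lower (10.5% of all genes) and 2 higher (6.61%). DESeq2 called 10 lower (6.98% of all genes) and 1 higher (LTBP3, 2.02%). The median log2 fold change was -0.056, beside 0.016 over all genes, with 27 genes below 0 and 20 above. Without overlap, siFAM53C lay below siCtrl in 13 genes (18.8% of all genes) and above in 4 (16.7%).

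Among 10 tested genes of ligand latency and activation, 2 were called lower (3.47% of all genes were). ITGB8, the integrin subunit that with ITGAV releases latent TGF-beta, had 62.7, 74.7 and 68.5 CPM in siCtrl and 9.64 and 10.8 in siFAM53C. The log2 fold change of -2.75 (SE 0.14, adjusted p = 0.000336 in edgeR) placed it at 0.149 of its siCtrl level, and it was called in all 13 alternatives, with adjusted p from 9.018e-59 to 0.006736. LTBP1, which tethers the latent complex to the matrix, had 117, 121 and 110 CPM in siCtrl and 82.3 and 75.4 in siFAM53C (log2 fold change -0.56, SE 0.11, edgeR adjusted p = 0.0301). Its relative LTBP3 was above the controls in both siFAM53C libraries, with 188, 179 and 202 against 241 and 262 CPM, and did not pass the test (0.41, SE 0.11, edgeR adjusted p = 0.09275). THBS1, which can also activate the ligand, had a log2 fold change of 0.40 (SE 0.25). LTBP1 was called in 1 of the 5 fits that leave out a library, the one without siCtrl replicate 3, where its value was -0.59. Within the sides of the split it differed by -0.53 and -0.54.

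Receptors of the activin and BMP branches gave 2 lower of 10 tested (3.47% of all genes were). ACVR2B, a type II receptor for activins, had 10.9, 10.3 and 9.95 CPM in siCtrl and 2.46 and 4.71 in siFAM53C (log2 fold change -1.54, SE 0.31, edgeR adjusted p = 0.03737). BMPR1A, a type I receptor for BMPs, had 71.9, 78.4 and 77.6 against 54.1 and 51.5 CPM (-0.53, SE 0.11, edgeR adjusted p = 0.03716). In each the groups were clearly apart, and ACVR2B was low enough that few reads carry its value. Leaving out 1 library in turn, ACVR2B was called in 2 of 5 fits (without siCtrl replicate 3 or siFAM53C replicate 2) and BMPR1A in 1 (without siCtrl replicate 3). The log2 fold changes of ACVR1 (-0.16, SE 0.11), ACVR1B (-0.032, SE 0.20) and BMPR2 (0.049, SE 0.16) did not pass the test.

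Of 5 tested genes among the other SMADs and adaptors, 2 were called lower (3.47% of all genes were). SMAD5, a transducer of the BMP branch, had 95.2, 97.4 and 96.2 CPM in siCtrl and 38.5 and 45.1 in siFAM53C. ZFYVE9 (SARA), which presents SMAD2 and SMAD3 to the receptor, had 40.5, 37.6 and 37.1 CPM in siCtrl and 16.3 and 12.8 in siFAM53C. The siCtrl values were tightly grouped and the siFAM53C values were well below them. SMAD5 fell by 1.21 (SE 0.11, adjusted p = 0.001832) and ZFYVE9 by 1.40 (SE 0.15, adjusted p = 0.002986) on the log2 scale, in edgeR, and each was called in all 13 alternatives. Opposite-strand genes overlap 610 exon bases of SMAD5. The 3' UTR of ZFYVE9 holds the heptamer GACAAGA at 2 sites, and that of SMAD5 holds none. SMAD1 (-0.31, SE 0.19) and TRIM33 (0.17, SE 0.11) did not pass.

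Inhibitors and turnover factors, of which 16 were tested, gave 0 calls by edgeR, where 3.96% of all genes were called in either direction. At unadjusted p under 0.05, 3 genes were on the lower side (10.5% of all genes) and 0 on the higher (6.61%). The same 3, PMEPA1 (-0.90, SE 0.28), SKI (-0.42, SE 0.11) and PPM1A (-0.45, SE 0.11), were called lower by DESeq2 (6.98% of all genes were). PMEPA1 is induced by TGF-beta and limits SMAD activation, SKI is the close relative of SKIL, and PPM1A is a phosphatase described for SMAD2 and SMAD3. PMEPA1 had 27.4, 27.5 and 41.1 CPM in siCtrl and 12.9 and 21.6 in siFAM53C, with siCtrl replicate 3 highest and no overlap. SMAD6, the inhibitor of the BMP branch, overlapped between the groups (-0.43, SE 0.34). Of the other ligands, INHBA (0.36, SE 0.31), GDF11 (-0.0077, SE 0.14) and BMP4 (0.067, SE 0.24) overlapped as well.

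Genes that TGF-beta is known to raise did not move in 1 direction. Of 38 listed, 33 were tested, 2 were called lower (ZEB1 and EDN1; 3.47% of all genes were) and 2 higher (COL1A1 and CDKN2B; 0.489%), with 17 below 0 and 16 above and a median of -0.040. ZEB1, a repressor of epithelial genes, had 66.4, 61.7 and 70.6 CPM in siCtrl and 26.7 and 26.3 in siFAM53C (log2 fold change -1.32, SE 0.12, adjusted p = 0.001254 in edgeR) and was called in all 13 alternatives. EDN1, the precursor of endothelin, had 13.9, 12 and 11.7 against 5.25 and 5.6 CPM (-1.21, SE 0.20, edgeR adjusted p = 0.01845). CDKN2B, which encodes a CDK4 and CDK6 inhibitor, had 8.91, 8.32 and 10.5 against 19.3 and 18 CPM (1.01, SE 0.18, edgeR adjusted p = 0.02289). COL1A1, a collagen chain, had 18.3, 15.8 and 18.6 against 29.2 and 29.4 CPM (0.74, SE 0.14, edgeR adjusted p = 0.03098). In all 4 genes the groups were apart by more than their spread. Leaving out 1 library, EDN1, CDKN2B and COL1A1 were each called in 1 of 5 fits, the one without siCtrl replicate 3. ACTA2 (0.74, SE 0.21), a smooth muscle actin of which 2025 exon bases are shared with the opposite strand, and NOX4 (-0.87, SE 0.31) did not pass. BHLHE40 (0.51, SE 0.14) and SNAI1 (0.79, SE 0.29, at most 5.22 CPM), named after their values were seen, were above every control and did not pass either with the main settings. DESeq2 called ACTA2 and BHLHE40 higher. Over the 13 alternatives, ACTA2 and BHLHE40 were each called in 4, NOX4 in 3 and SNAI1 in 0. At an unadjusted p under 0.05, 9 of the 33 were lower (10.5% of all genes) and 5 higher (6.61%).

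CCN2, a matricellular protein widely used as a readout of the pathway, is named here after its values were seen. It had 480, 529 and 577 CPM in siCtrl and 401 and 395 in siFAM53C (log2 fold change -0.41, SE 0.12). Both siFAM53C values were below every control. The adjusted p was 0.1303 in edgeR, from 0.001953 to 0.4921 over 13 alternatives, and CCN2 was called lower in 3 of these, DESeq2 among them.

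**Figure D3:**
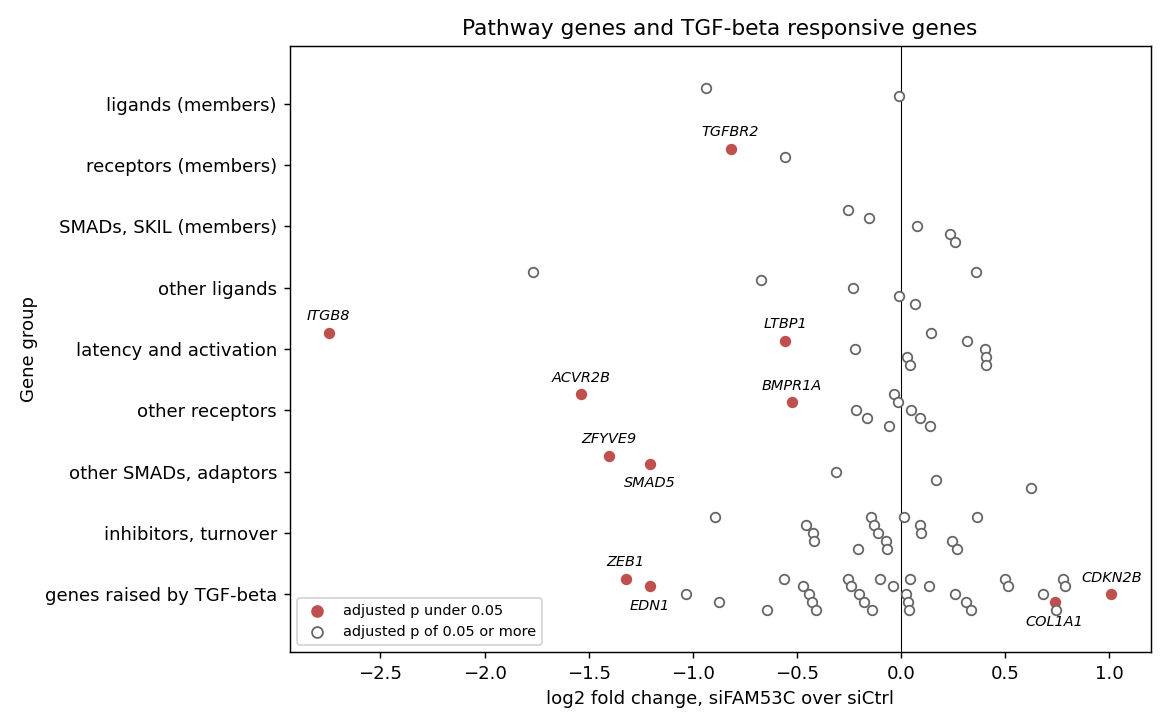
Log2 fold change, siFAM53C over siCtrl, of every tested gene of the 9, of the other pathway genes by role, and of the genes raised by TGF-beta; filled and named points have an adjusted p under 0.05, and vertical offsets carry no value. ITGB8 is the lowest at -2.75, the 7 filled points of the pathway groups are all below 0, and the genes raised by TGF-beta spread from -1.32 to 1.01.

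The genes whose pattern over the 5 libraries was most like that of TGFBR2, among 9300 genes with a mean of at least 10 CPM, were ANKRD44 (Pearson r = 0.9997), LINC00941 (0.9995) and USP10 (0.9992), with log2 fold changes of -1.35, -0.40 and -0.41. The points are 5 libraries that share their depth and scaling, so this is a description of shape only.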

How the data were processed

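The members and gene lists were chosen with earlier results of these data known. Per the methods and the submitters' processing notes, the authors used CutAdapt 2.10 for trimming, HISAT2 for reverse-stranded alignment to hg38, and featureCounts for counts per gene. The annotation release and the strand setting of the counting are not given in the sources used here. The deposited values are raw counts per Ensembl gene, without normalization, and 0 columns belong to other samples. The title of 1 siFAM53C library gives replicate 2 and its column name ends in 3. The methods describe duplicates with another extraction kit than the labels; all 5 libraries were used.

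Identifiers were matched to GENCODE release 44 on GRCh38 (56105 of 64252), the source of positions, exon lengths and 3' UTRs. The main test was the robust quasi-likelihood test of edgeR 4.0.16 (R 4.3.3) with TMM scaling and condition as the only term, on the 15341 genes kept by filterByExpr at a minimum count of 10 and a minimum total of 15; p-values were adjusted over these genes (Benjamini-Hochberg, threshold 0.05). On simulated counts of this comparison (15341 genes), edgeR recovered 97 of 100 genes changed by 2 and 72 of 100 changed by 1 on the log2 scale. It also called 22 unchanged genes, a larger share of its calls than the threshold of 0.05. The counts were drawn independently for each library, without the split seen in the real ones, so recovery in the real data was not measured. Besides the genes of the set, every called gene of a list was named, and up to 4 per list role with the largest change at a mean of at least 10 CPM. Alternatives were DESeq2 1.42.0, other size factors, no filter, replicate blocks, a term for the library split, unadjusted p and each library left out. The libraries on each side of the split were read from the first principal component, so that term was also set after seeing the data. A fit without robust estimation, per-length levels and ratios by median transcript length and the within-split differences were added after seeing the data. The result of 1 gene of the lists is not reported here.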

Additional observations from a re-analysis of the deposited data

How the results depend on the processing

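Directions of TGFB2, TGFBR1, TGFBR2, SMAD2, SMAD3 and SMAD4 were the same in all 13 alternative fits. TGFB1 changed sign with library totals only (0.061), without siCtrl replicate 1 (0.040) and with the term for the split (0.0055), SMAD7 without siCtrl replicate 3 (-0.041) and with a replicate block by title numbers (-0.048), and SKIL in the same fits (0.030 and 0.022). By title numbers siCtrl replicate 3 has a block of its own and so does not bear on the fold change. That fit and the one without siCtrl replicate 3 are therefore not separate evidence. Of the 9 genes, 1 was called lower with the main settings, 2 with no filter on low counts, 3 with a replicate block by column names, 4 with the term for the split and 2 at an unadjusted p; 1 was called higher with the term for the split, against 0. Over all genes the split term called 10.7% lower and 6.76% higher, and the block by column names 8.8% and 4.18%. DESeq2 called 6.98% lower and 2.02% higher, the fit with no filter 3.61% and 1.41%, and the block by titles 5.58% and 2.31%. An unadjusted p under 0.05 gave 10.5% and 6.61%. Without siCtrl replicate 1, 2 or 3 the shares were 1.4%, 1.18% and 5.91% lower, and 0.0605%, 0.0395% and 2.76% higher. Of the other pathway genes, 6 were called lower, and 10 by DESeq2, 10 with no filter, 10 with the block by column names, 11 with the split and 10 at an unadjusted p; 0 were higher, and 1 by DESeq2, 2 with the block by titles, 2 by column names, 4 with the split and 2 at an unadjusted p. Of the genes raised by TGF-beta, 2 were lower, and 5 by DESeq2, 7 with no filter, 5 with the block by titles, 10 by column names, 10 with the split and 9 at an unadjusted p; 2 were higher, and 4 by DESeq2, 4 with no filter, 5 with the block by column names, 5 with the split and 5 at an unadjusted p. Leaving out 1 library gave from 0 to 1 of the 9 genes lower, from 3 to 8 other pathway genes lower (8 without siCtrl replicate 3) and 0 to 2 higher, and from 1 to 5 genes raised by TGF-beta lower and 0 to 2 higher. Log2 fold changes over these fits ran from -0.053 to 0.040 for TGFB1, -0.041 to 0.17 for SMAD7 and -0.26 to 0.030 for SKIL. A lone siFAM53C library was assumed to vary like the others. Why the counts moved was not tested.

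The block by titles rests on a number only. Deviations from the group means correlated at 0.169 for number 1 and -0.285 for number 2, and by column names at 0.169 and 0.371. The deviations of the 2 siFAM53C libraries mirror each other, so each control correlates with them at the same size and opposite sign. These values therefore cannot decide which libraries were paired. For siCtrl replicate 2, without a partner by column names, the value with siFAM53C replicate 1 was 0.285. Over all genes, 533 were lower and 75 higher (87.7% of calls lower); library totals gave 415 and 121 (77.4%) and DESeq2 890 and 257 (77.6%). The small differences of SMAD2 and SMAD3 passed the test with the term for the split alone, and that of SMAD4 in 0 of the 13 fits.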

Other observations

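Genes that TGF-beta is known to lower were listed as well (6 genes, of which 5 were tested). By edgeR 0 were called in either direction (3.96% of all genes were), with 0 at an unadjusted p under 0.05 (17.1%) and 0 by DESeq2. ID1 had 65.1, 58 and 110 CPM in siCtrl and 51.5 and 125 in siFAM53C, and ID3 had 61.6, 58.6 and 105 against 69.4 and 139 CPM. These inhibitors of basic helix-loop-helix factors, which BMP signals raise, were thus highest in siCtrl replicate 3 and siFAM53C replicate 2, the libraries on one side of the first principal component. With a term for that split, ID3 was called higher. MYC (-0.18, SE 0.14) and CDC25A (-0.019, SE 0.11), which drive the entry into S phase, overlapped between the groups.

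BMP2, a ligand of the BMP branch named after its value was seen, had 12.8, 11.7 and 3.88 CPM in siCtrl and 3.82 and 1.74 in siFAM53C. It differed by -1.77 on the log2 scale (SE 0.59, edgeR adjusted p = 0.1998), with siCtrl replicate 3 next to the siFAM53C values, and DESeq2 called it lower.

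HMGA2, an architectural factor that TGF-beta raises, was just outside the threshold, with 425, 420 and 367 CPM in siCtrl and 291 and 257 in siFAM53C (-0.56, SE 0.12, adjusted p = 0.0509 from the edgeR test, from 0.0001479 to 0.3617 over 13 alternatives). Its 3' UTR holds GACAAGA at 2 sites. Of the 47 other pathway genes, 9 hold the heptamer (19.1%), of which 3 were called lower, and 3 of those without it were. Over all tested genes with a 3' UTR 11.6% hold it, and 15.1% of these were called lower, against 2.92% of the others. The heptamer was picked for its link to lower expression in these same libraries, so these counts are a description and no independent evidence.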
